A study of Mus musculus with 4 samples.

Results

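The genes described here are the 8 receptor chains of the common gamma-chain cytokine family: Il2ra, Il15ra, Il4ra, Il7r, Il9r and Il21r, which each give a receptor its specificity, Il2rb, which the IL-2 and IL-15 receptors share, and Il2rg, the gamma chain itself. They were chosen by name, not by their values, and are 8 of the 32285 genes in the RNA matrices. Their levels were measured in single cells from tumours of Thy1.2+ B6 mice, an inbred strain with an intact immune system, that bore a chimeric tumour and had received transferred Pmel-1 cells, Thy1.1+ and of either the Tc1 or the Tc9 kind. Pmel-1 cells are CD8 T cells with a transgenic receptor for a melanocyte antigen, and Tc1 and Tc9 are states reached in culture, the latter known for making IL-9. At day 30 after tumour inoculation, tumours of 3 mice were pooled per group and CD4+ T cells were isolated. Each group then has a single RNA library and a single library of T cell receptor (TCR) sequences. With 1 pooled library per group there was no replicate, so no difference between the groups could be tested and no p-value is given.

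A gamma-chain receptor signals when the gamma chain and a partner chain bind a cytokine together. The partner is Il2rb for IL-2 and IL-15, and the private chain for the other cytokines. The kinases Jak1 and Jak3 on the partner and gamma chains then phosphorylate STAT factors, mainly STAT5 for IL-2, IL-7, IL-9 and IL-15, STAT6 for IL-4 and STAT3 for IL-21. In textbook T cell biology, Il2ra (CD25) marks regulatory and recently activated T cells, Il7r (CD127) marks naive and memory cells, and Il2rb (CD122) is high on NK cells and memory-like CD8 T cells.

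Levels are counts of unique molecular identifiers (UMIs) of a gene, summed over the cells of a class and scaled to a class total of 1000000 UMIs (CPM). Ranges after a level or a log2 ratio are 95% intervals from exact Poisson or binomial limits. They cover counting error only, and they are too narrow because UMIs of the same cell were treated as independent. A gene was counted as higher or lower where the levels were at least 1.5-fold apart, among genes with at least 10 CPM on either side. Values of different genes were not set against each other, since gene length and capture differ.

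Of 11933 barcodes kept in the Tc1 library, 4364 fell in T cell clusters, against 7710 of 8204 in the Tc9 library, so the label of sorted CD4+ T cells held for only part of the Tc1 barcodes. The remainder carried mainly macrophage and other myeloid, stromal or melanocyte genes, and CD8 T cells were present in both libraries (1684 and 213 cells). Clusters were made without the 8 genes, and classes were set by other genes. T cells with Foxp3, the factor that defines regulatory T cells, and no Cd8a or Cd8b1 UMI numbered 190 in Tc1 and 1019 in Tc9. They were counted as CD4 T cells, but unlike the other CD4 classes they were not required to have a Cd4 UMI. Cd4 stood at 247 and 181 CPM in them, against 507 and 376 CPM in the cells called other CD4 below. Cells with Il4, Il5 or Il13 but no Ifng (type 2 cytokine cells) numbered 101 and 570, and cells with Ifng alone 152 and 665. Cells with Il2 but none of the genes above form a further class (66 and 341 cells). Naive-like CD4 cells, gated on a list of naive T cell markers that includes Ccr7 and Lef1, numbered 195 and 97, and CD4 cells with none of these features 521 and 1917. A TRBV14-TRBJ1-6 TCR beta chain was carried by 59 barcodes in Tc1 and 487 in Tc9, of which 36 and 472 were in T cell clusters and form the shared-receptor class; the only other chain in both libraries had 1 barcode in each. Foxp3 cells fell mostly in 1 cluster, led by Frmd5 and Foxp3, in both libraries (88.4% in Tc1 and 93.7% in Tc9). Other classes sat in different clusters: the cluster led by Krt83 and Hbb-bs held 77.2% of type 2 cytokine cells, 78.3% of Ifng cells and 70.4% of other CD4 cells of Tc1, against 1.40%, 4.36% and 2.03% in Tc9. In Tc9, 71.6% of type 2 cytokine cells fell in the cluster led by Il5 and Il13, and 62.9% of Ifng cells in the one led by St8sia1 and Il31ra. Of shared-receptor cells, 88.9% in Tc1 and 0.424% in Tc9 fell in the cluster led by Gzma, and 52.1% in Tc9 fell in the one led by Slc17a6. Ratios between the libraries for these classes therefore compare cells of different clusters. The libraries had 148 cell barcodes in common. Of these, 31 had a TCR beta contig in both libraries, and none of the 31 held a shared chain in both.

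Within the T cell classes, the libraries differed in the genes of other cell types. The 7 macrophage markers summed to 337 CPM in Foxp3 cells and 498 CPM in other CD4 cells of Tc1, against 19.4 and 15.4 CPM in Tc9, and at least 1 UMI of each marker was present in these classes. Haemoglobin genes summed to 12446 CPM in type 2 cytokine cells and 8880 CPM in naive-like CD4 cells of Tc1, and were at 0 in those classes of Tc9. A T cell cluster whose leading genes included Krt83 and Hbb-bs held 52.2% of all CD4 T cells in Tc1. The part of this RNA in the differences between the libraries was not tested, except through the alternatives in the closing section. The 8 genes themselves are low in the macrophages of the Tc1 library for Il2ra (1.73 CPM), Il2rb (2.51 CPM), Il9r (0), Il7r (10.5 CPM) and Il15ra (10.4 CPM), but not for Il4ra (165 CPM), Il2rg (146 CPM) or Il21r (47.7 CPM).

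Promoter sequences are shown for Il2ra, Il4ra and Il7r, the private chains on which the class differences below turn, as the bases just before the RefSeq start site (GRCm38.p6); RefSeq windows were found for 7 of the 8 genes. Il2ra lies at chr2:11642792-11693194 and Il15ra close beside it at chr2:11705172-11733985, and Il4ra (chr7:125552271-125579474) likewise neighbours Il21r (chr7:125603252-125634397). Il7r lies at chr15:9506159-9529941, Il2rb at chr15:78479256-78511621, Il9r at chr11:32187544-32205283 and Il2rg at chrX:101264385-101268255. The first sequence is chr2:11642542-11642791 on the + strand, the second chr7:125552021-125552270 on the + strand, and the third the 150 bases chr15:9529977-9530126 on the - strand, which end 101 bases before the start site used. That Il7r start site lies inside the gene span given above, so part of the 250 bases searched for Il7r is within the span. The 150 bases printed are outside it. Capitals mark motif matches.
Il2ra: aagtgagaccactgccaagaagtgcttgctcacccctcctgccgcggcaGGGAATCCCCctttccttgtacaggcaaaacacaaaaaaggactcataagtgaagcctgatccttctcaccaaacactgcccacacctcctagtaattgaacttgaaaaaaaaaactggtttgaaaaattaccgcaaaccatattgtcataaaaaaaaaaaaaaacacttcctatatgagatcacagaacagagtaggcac
Il4ra: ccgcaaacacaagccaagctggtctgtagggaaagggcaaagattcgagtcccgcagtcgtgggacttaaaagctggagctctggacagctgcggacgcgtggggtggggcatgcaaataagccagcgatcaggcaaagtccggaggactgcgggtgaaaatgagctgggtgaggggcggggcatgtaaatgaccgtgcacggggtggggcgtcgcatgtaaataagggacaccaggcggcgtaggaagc
Il7r: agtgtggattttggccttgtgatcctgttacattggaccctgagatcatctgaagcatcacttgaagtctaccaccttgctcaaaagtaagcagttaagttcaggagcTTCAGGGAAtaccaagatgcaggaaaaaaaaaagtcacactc
In the 250 bases before the start, both strands were searched for TTCNNNGAA (STAT), TTC and GAA with any 4 bases between (STAT6), GGGA and CC with any 4 bases between (NF-kB), TGTGGT (Runx) and TGANTCA (AP-1). The Il2ra window holds the NF-kB letters as GGGAATCCCC, which 17.6% of 32851 promoter windows also hold in some form. The Il7r window holds the STAT letters as TTCAGGGAA, present in 7.02% of windows. None of the 5 motifs occurs in the Il4ra window, which says only that these letters are not there. A match is a description of the sequence, not a site of binding.

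Il2ra, the high-affinity chain of the IL-2 receptor, was highest in Foxp3 cells in both libraries among classes of at least 50 cells. The Tc1 level was 309 CPM (278 to 344), and the Tc9 level was 848 CPM (826 to 870). In other CD4 cells it was 29.9 CPM (22.2 to 39.4) and 59.5 CPM (54.8 to 64.5). Foxp3 cells thus exceeded other CD4 cells by 3.37 on the log2 scale (2.94 to 3.83) in Tc1 and by 3.83 (3.71 to 3.96) in Tc9. Among CD4 classes of at least 50 cells, type 2 cytokine cells came next, with 75.5 CPM (52.0 to 106) and 151 CPM (139 to 163). Their intervals overlapped with neither neighbour in that order. The 27 cells of Tc1 with both Ifng and a type 2 cytokine held 97.6 CPM (50.5 to 171), an interval that covers the level of type 2 cytokine cells. Cells with Ifng alone were lower, at 26.9 and 31.0 CPM. Type 2 cytokine cells exceeded them by 1.49 (0.57 to 2.47) in Tc1 and 2.28 (2.0 to 2.57) in Tc9 on the log2 scale. The class with Il2, the cytokine that Il2ra binds, but without Foxp3, type 2 cytokine or Ifng UMIs held 8.33 CPM, from 2 UMIs, and 32.2 CPM (24.9 to 41.0).

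**Figure D1:**
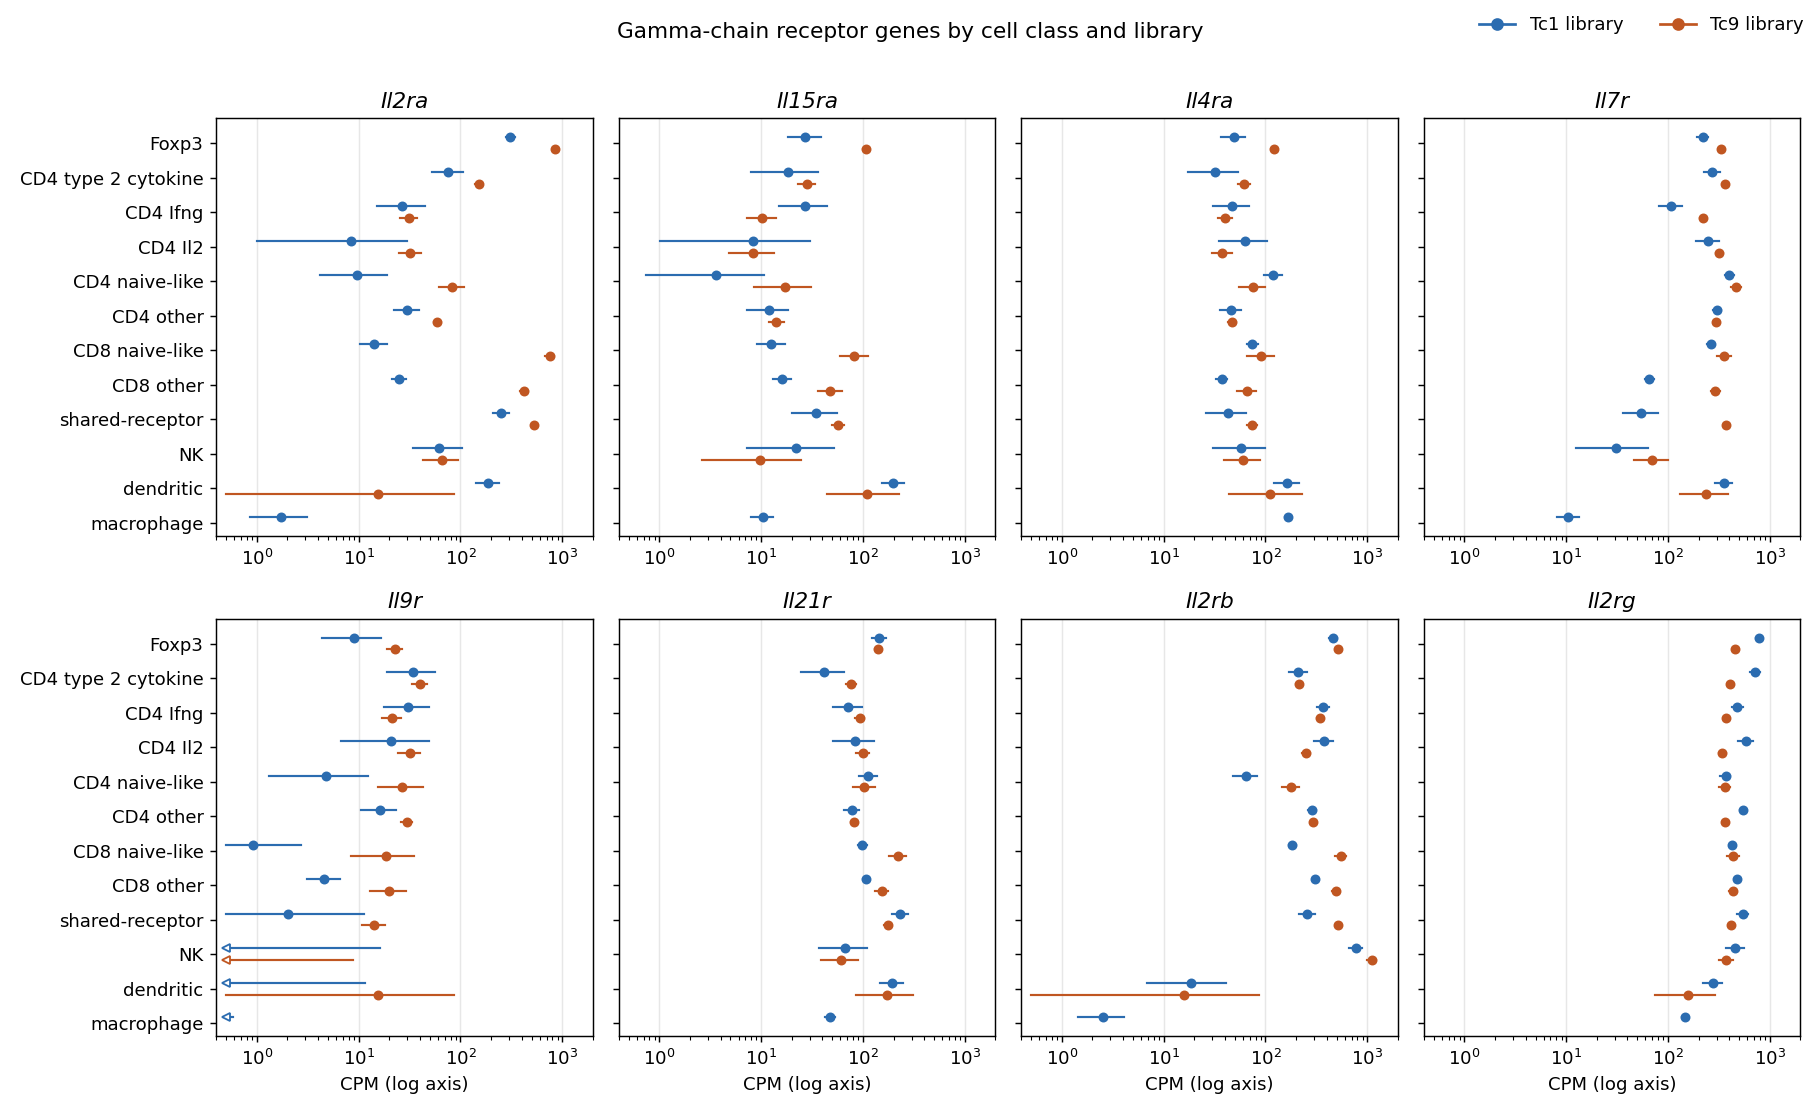
Level of each receptor gene in CPM (x axis, logarithmic) by cell class (rows) in the Tc1 (blue) and Tc9 (orange) libraries, with 95% counting intervals as lines; an open triangle at the left edge marks a class with 0 UMIs, with its upper limit as the line (the upper 95% bound), and intervals that reach below 0.5 CPM end there. Il2ra in Foxp3 cells stands at 309 and 848 CPM, and macrophages, present only in Tc1, hold 1.73 CPM.

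Set against each other, Foxp3 cells of the Tc9 library held more Il2ra than those of Tc1, by 1.45 on the log2 scale (1.30 to 1.62). A UMI was found in 79.2% of these cells in Tc9 and 59.5% in Tc1. With every cell thinned to 2000 UMIs the shares were 63.6% (60.5 to 66.7) and 38.4% (31.2 to 46.0), so their intervals did not overlap. For comparison, 1.06% of macrophages in Tc1 had an Il2ra UMI (0.139% thinned, median 8150 UMIs), as did 2.33% of stromal cells in Tc9 (1.25% thinned, median 6051 UMIs), while the median depth of Foxp3 cells was 4397 and 5368 UMIs. Not all classes outside T cells were low. Dendritic cells of Tc1 held 186 CPM (142 to 240), with an Il2ra UMI in 48.5% of 33 cells (30.0% thinned, median 10442 UMIs). Those of Tc9 had 1 UMI in 15 cells. Restricted to the cluster led by Foxp3, the Il2ra levels of Foxp3 cells were 317 and 888 CPM in 168 and 955 cells. Foxp3 itself stood at 511 and 547 CPM in the whole class, but a Foxp3 UMI defines the class, so its level there is no result.

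Over all CD4 T cells, Il2ra was 93.2 CPM in Tc1 and 255 CPM in Tc9 (log2 ratio 1.45, 1.32 to 1.59). Foxp3 cells were 190 of 1252 CD4 T cells in Tc1 and 1019 of 4705 in Tc9. With Foxp3 cells left out, the levels were 31.1 and 70.6 CPM (1.18, 0.91 to 1.46). In other CD4 cells the log2 ratio of 0.99 (0.58 to 1.44) did not hold in direction under every alternative: it was -0.07 where 2 UMIs of the gate genes were required and -1.54 where expected free RNA was subtracted. The 2-UMI gate was not a stricter form of this class, because cells with 1 Foxp3 or cytokine UMI could then enter it. The Foxp3 class fell to 131 cells in Tc1 and 748 in Tc9.

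CD8 cells differed most between the libraries for Il2ra. CD8 cells outside the naive-like gate held 25.2 CPM (21.5 to 29.4) in Tc1 and 418 CPM (383 to 456) in Tc9, a log2 ratio of 4.05 (3.80 to 4.32). The cells were unlike in other ways. In Tc1, 75.5% of them fell in 1 cluster led by Gzma and Ccl5, while in Tc9 the largest cluster, led by Slc17a6 and Crabp2, held 32.6%, and Foxp3 stood at 8.30 and 141 CPM. A productive TCR beta contig was found for 74.1% and 27.3% of these cells. Taking all CD8 cells without a Foxp3 UMI and outside the Foxp3-led cluster, Il2ra was 16.3 CPM (13.8 to 19.1) in 1651 cells of Tc1 and 298 CPM (261 to 338) in 124 cells of Tc9. Among CD8 cells with a TCR beta contig it was 16.9 CPM in 1248 cells and 205 CPM (158 to 260) in 51 cells. No doublet caller was run, and the part of barcodes that hold more than 1 cell was not tested.

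Shared-receptor cells held 251 CPM of Il2ra (209 to 300) in 36 cells of Tc1, above CD8 cells outside the naive-like gate by 3.32 on the log2 scale (2.97 to 3.66), and 529 CPM (508 to 551) in 472 cells of Tc9. Their median depths, 13491 and 7665 UMIs, were above those of other CD8 cells (4608.5 and 6179). At 2000 UMIs per cell, 33.3% (18.6 to 51.0) and 45.5% (41.0 to 50.2) had an Il2ra UMI, with intervals that overlap. Their Cd8 genes summed to 977 CPM in Tc1 and 374 CPM in Tc9, and Foxp3 was 8.10 and 62.2 CPM. Without cells that had a Foxp3 UMI or fell in the Foxp3-led cluster, 35 and 372 cells held 255 and 452 CPM.

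Naive-like CD4 cells held 9.63 CPM of Il2ra in Tc1 and 82.7 CPM in Tc9, but the gate caught different cells. In Tc1, 158 of 195 cells fell in the cluster led by Dapl1 and Tmem108; in Tc9 only 8 of 97 did. Within that cluster 1 Il2ra UMI was found in Tc1 (1.46 CPM) and 0 in Tc9, which allows up to 62.2 CPM (3 counts). In the other clusters the levels were 47.3 CPM (19.0 to 97.4) in 37 cells and 89.4 CPM (67.0 to 117) in 89 cells, with overlapping intervals. Ratios between the libraries for naive-like CD4 cells therefore compare unlike cells.

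Il15ra, the private chain that holds IL-15 and can present it to neighbouring cells, followed the order of Il2ra in part. In Foxp3 cells it was 27.1 CPM (18.3 to 38.6) in Tc1 and 107 CPM (99.6 to 116) in Tc9, a log2 ratio of 1.99 (1.46 to 2.57). Other CD4 cells held 11.9 CPM (7.30 to 18.5) and 14.1 CPM (11.9 to 16.6), so Foxp3 cells were above them by 1.18 (0.32 to 2.07) and 2.93 (2.67 to 3.20) on the log2 scale. Over all CD4 T cells the log2 ratio was 1.19 (0.86 to 1.54), and without Foxp3 cells it was 0.22 (-0.21 to 0.67). Cells with Ifng went the other way, from 26.9 CPM (15.1 to 44.4) in Tc1 to 10.2 CPM (7.27 to 13.8) in Tc9, in cells mostly of different clusters. Dendritic cells of Tc1 held the highest level of any class, 199 CPM (153 to 254) in 33 cells, and those of Tc9 held 110 CPM (44.1 to 226) in 15 cells, an interval that contains the level of Foxp3 cells.

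Il4ra, the chain of the IL-4 and IL-13 receptors, was high in several myeloid classes and in a few T cell classes. Macrophages of Tc1 held 165 CPM (155 to 175), dendritic cells 162 CPM (121 to 212) and neutrophils 114 CPM (76.1 to 163). The unnamed myeloid clusters of Tc1 ranged widely, from 28.3 CPM (22.8 to 34.7) in 927 cells of the cluster led by Atp6v0d2 and Ccl8, which is below other CD4 cells, to 288 CPM (244 to 339) in 141 cells of another. Macrophages, dendritic cells and neutrophils together exceeded other CD4 cells by 1.84 on the log2 scale (1.5 to 2.2) in Tc1. In Tc9 they were only 26 cells, 11 of them from the neutrophil cluster with 1 Il4ra UMI, with a difference of 0.59 (-0.63 to 1.58) that covers 0. The unnamed myeloid clusters of Tc9, 81 cells together, held 202 CPM (152 to 262) of Il4ra. Other CD4 cells of Tc9 held 46.7 CPM (42.6 to 51.2), so these intervals did not overlap.

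Among T cells Il4ra changed its order between the libraries. In Tc1 naive-like CD4 cells led with 118 CPM (95.7 to 144) and Foxp3 cells held 48.7 CPM (36.6 to 63.6), within the interval of other CD4 cells (45.4 CPM, 35.8 to 56.8). In Tc9 Foxp3 cells led with 120 CPM (112 to 129), above naive-like CD4 cells (74.9 CPM) and other CD4 cells (46.7 CPM). The log2 ratio of Tc9 to Tc1 was 1.30 (0.90 to 1.73) in Foxp3 cells and -0.66 (-1.19 to -0.14) in naive-like CD4 cells. Within the cluster led by Dapl1 and Tmem108, naive-like CD4 cells held 104 CPM (81.2 to 131) in Tc1 and 145 CPM (58.4 to 299) in 8 cells of Tc9, so the lower level in Tc9 was not seen there. Type 2 cytokine cells, which make the ligand, held 32.0 CPM (17.5 to 53.8) and 61.8 CPM (54.2 to 70.1). Stromal cells also differed, with 55.8 CPM (44.5 to 69.1) in Tc1 and 197 CPM (166 to 234) in Tc9, in 86 cells of each library.

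Il7r, the private chain of the IL-7 receptor, was highest in naive-like CD4 cells in both libraries, at 401 CPM (359 to 446) in Tc1 and 463 CPM (412 to 519) in Tc9. Foxp3 cells held 220 CPM (193 to 250) and 328 CPM (314 to 342), so naive-like CD4 cells exceeded them by 0.86 (0.62 to 1.11) and 0.50 (0.32 to 0.67) on the log2 scale. The Tc1 value fell to 0.19 when each cell was weighted equally. Within the cluster led by Dapl1 and Tmem108, naive-like CD4 cells held 369 and 332 CPM, with overlapping intervals. The Tc9 value came from 8 cells, and its interval (190 to 539) covers the level of Foxp3 cells. Naive-like CD4 cells of other clusters held more, 547 CPM (434 to 680) in 37 cells of Tc1 and 474 CPM (420 to 533) in 89 cells of Tc9.

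Cells with Ifng differed in Il7r between the libraries. They held 108 CPM (82.2 to 139) in Tc1 and 221 CPM (207 to 236) in Tc9, a log2 ratio of 1.04 (0.66 to 1.44), again in cells mostly of different clusters. Over 11 alternatives of processing this ratio ran from 0.14 to 1.26, so its size depends on the processing. In CD8 cells outside the naive-like gate the levels were 65.8 CPM (59.7 to 72.3) and 292 CPM (263 to 324), a log2 ratio of 2.15 (1.95 to 2.36). Shared-receptor cells held 54.7 CPM (36.0 to 79.6) and 370 CPM (352 to 388), and NK cells 31.1 CPM (12.5 to 64.0) and 70.0 CPM (46.9 to 101). By contrast, other CD4 cells held 305 and 299 CPM, a log2 ratio of -0.03 (-0.16 to 0.11).

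Outside T cells, Il7r was found in dendritic cells, at 354 CPM (292 to 425) in Tc1 and 235 CPM (132 to 388) in Tc9. It was also found in myeloid clusters of Tc1 that no marker list named. The cluster led by Cxcl3, Ppbp and Thbs1 held 125 CPM (119 to 131), with a UMI in 34.7% of its 1345 cells that had neither a Cd3 UMI nor a productive contig. Macrophages of the same library had a UMI in 4.25% of cells. The unnamed clusters together held 104 CPM (99.2 to 109) in 2998 cells of Tc1.

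**Figure D2:**
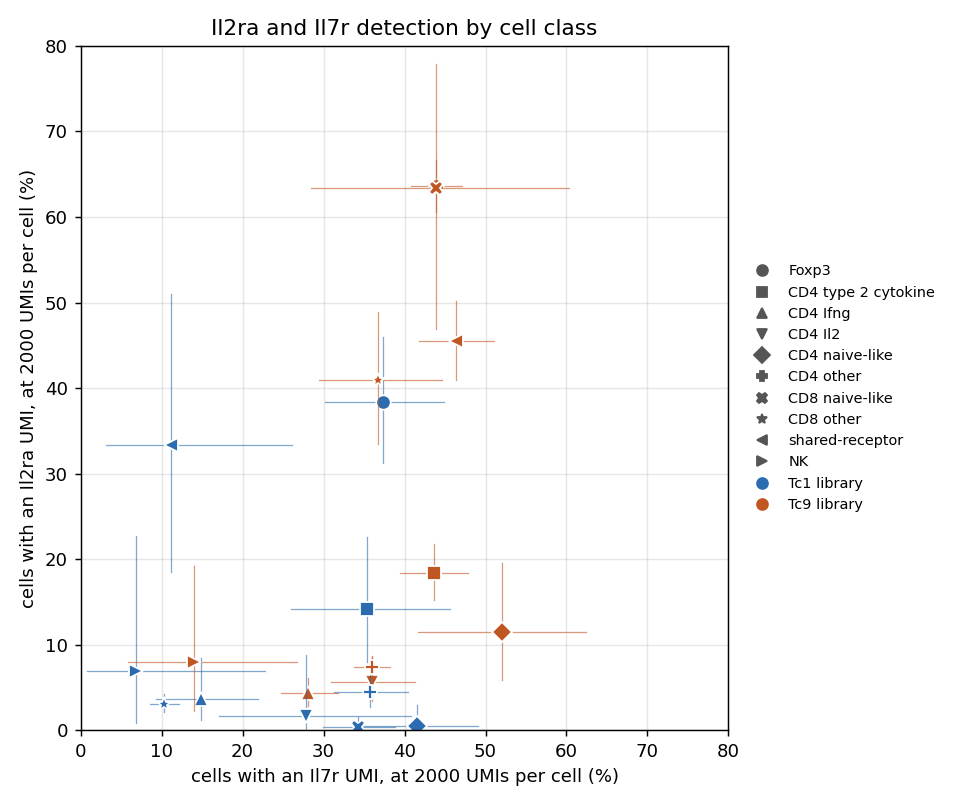
Share of cells with an Il7r UMI (x axis, %) against share with an Il2ra UMI (y axis, %) after thinning each cell to 2000 UMIs, by cell class (marker shape) and library (colour), with exact 95% intervals. Foxp3 cells of Tc9, at 43.9% and 63.6%, lie under the point of the Tc9 naive-like CD8 cells (43.9% and 63.4%, 41 cells, of which 14 fell in the Foxp3-led cluster and 1 in the cluster led by Dapl1), while naive-like CD4 cells of Tc1 lie at 41.5% and 0.546%.

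In Foxp3 cells, an Il7r UMI went with neither more nor fewer Il2ra UMIs beyond counting error. In Tc9, 66.3% (61.6 to 70.7) of the Foxp3 cells with an Il7r UMI had an Il2ra UMI, against 61.6% (57.4 to 65.7) of those without. In Tc1 the shares were 33.3% (22.2 to 46.0) and 41.4% (32.2 to 51.2). For Il2rb the Tc9 intervals did not overlap: Il2ra was found in 71.2% (67.4 to 74.8) of Foxp3 cells with an Il2rb UMI and in 51.8% (46.7 to 56.9) of those without. In Tc1 these shares were 40.9% and 36.0%, with overlapping intervals.

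**Figure D3:**
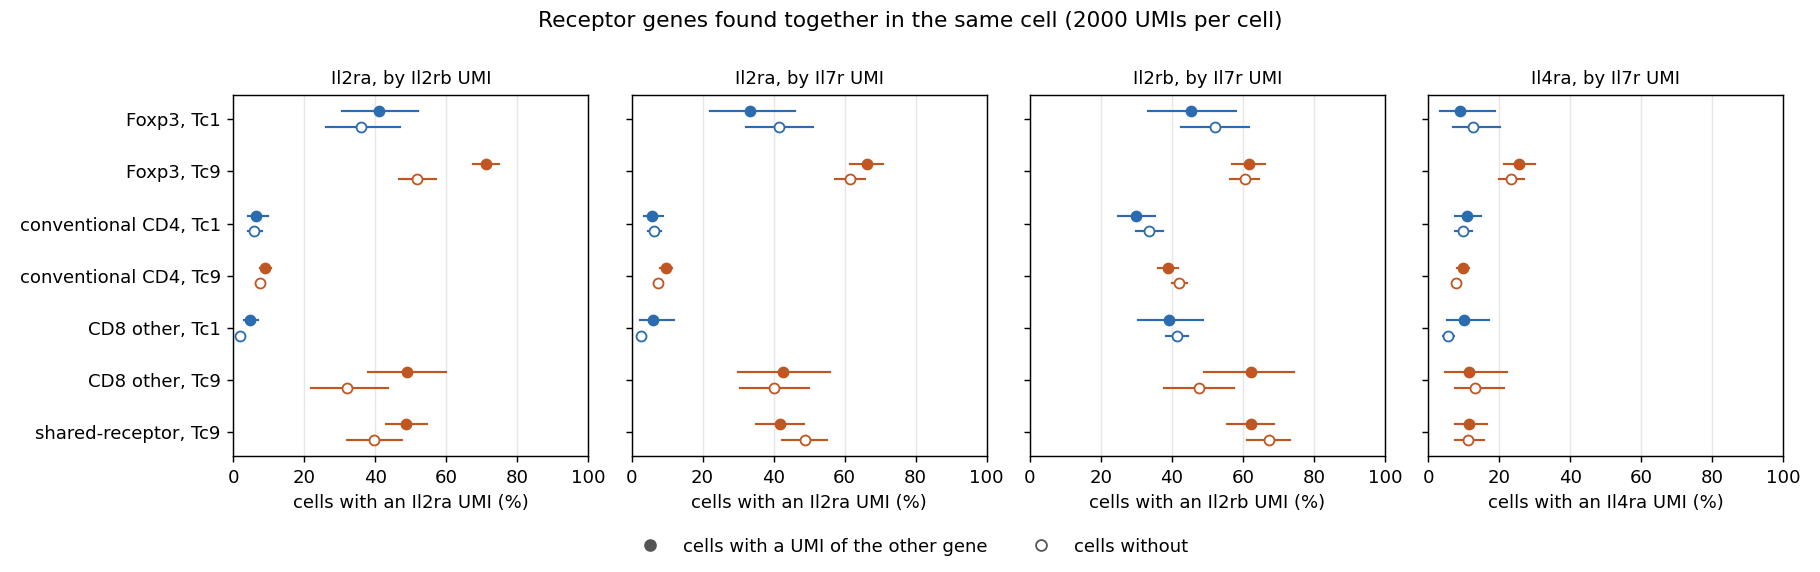
Share of cells with a UMI of one receptor gene (x axis, %) among cells with (filled) and without (open) a UMI of a second one, by class and library (rows), after thinning to 2000 UMIs, with exact 95% intervals. Il2ra in Tc9 Foxp3 cells splits by Il2rb (71.2% against 51.8%), whereas Il4ra by Il7r does not (25.6% against 23.3%).

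Il9r, the receptor for IL-9, was sparse. In type 2 cytokine cells it was 34.3 CPM (19.2 to 56.6) in Tc1 and 39.7 CPM (33.6 to 46.4) in Tc9, and in other CD4 cells 16.1 CPM (10.6 to 23.5) and 29.6 CPM (26.3 to 33.2). Over all CD4 T cells it was 16.7 and 28.4 CPM, a log2 ratio of 0.77 (0.44 to 1.11). This was not seen in every CD4 class. Foxp3 cells went from 9.02 CPM in Tc1 to 22.5 CPM in Tc9, but cells with Ifng held 30.5 CPM (17.8 to 48.8) and 21.1 CPM (16.8 to 26.2). All CD4 cells without Foxp3 that had a type 2 cytokine, Ifng or Il2 UMI held 30.9 and 31.0 CPM, a log2 ratio of 0.002 (-0.46 to 0.50). CD8 cells outside the naive-like gate held 4.61 CPM (3.11 to 6.58) and 19.96 CPM (12.9 to 29.5). No UMI was found in NK cells of either library or in macrophages, which at 3 counts allows up to 13.3 and 7.24 CPM in NK cells of Tc1 and Tc9 and 0.471 CPM in macrophages. Its ligand Il9, the cytokine that names Tc9 cells, had 0 UMIs in Tc1 and 30 UMIs in Tc9, all in 1 cell outside every class.

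Il21r, the receptor for IL-21, differed little between the libraries in Foxp3 and other CD4 cells. It was 143 CPM (122 to 168) and 140 CPM (131 to 149) in Foxp3 cells and 77.7 and 81.8 CPM in other CD4 cells, so Foxp3 cells were above other CD4 cells by 0.89 (0.54 to 1.23) and 0.78 (0.64 to 0.91) on the log2 scale. Shared-receptor cells held 233 CPM (192 to 280) in Tc1 and 174 CPM (162 to 187) in Tc9, and dendritic cells 193 and 172 CPM.

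Il2rb, the shared beta chain of the IL-2 and IL-15 receptors, was highest in NK cells in both libraries. It stood at 772 CPM (661 to 895) in 30 cells of Tc1 and 1101 CPM (1002 to 1206) in 51 cells of Tc9, and exceeded other CD4 cells by 1.42 (1.16 to 1.67) and 1.92 (1.78 to 2.07) on the log2 scale. A UMI was found in 28 of 30 and 50 of 51 NK cells. Macrophage markers summed to 1131 CPM in the NK cells of Tc1 and 7.24 CPM in those of Tc9, and macrophages themselves held 2.51 CPM of Il2rb.

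Among T cells, Il2rb was close between the libraries in most CD4 classes. Foxp3 cells held 463 CPM (424 to 505) and 512.5 CPM (495 to 530), cells with Ifng 370 and 339 CPM, type 2 cytokine cells 211 and 213 CPM and other CD4 cells 289 and 290 CPM. The log2 ratio of type 2 cytokine cells to cells with Ifng was -0.81 (-1.18 to -0.45) in Tc1 and -0.67 (-0.80 to -0.55) in Tc9, the opposite order to Il2ra. Shared-receptor cells held 257 CPM (214 to 306) in Tc1 and 517 CPM (496 to 539) in Tc9, and CD8 cells outside the naive-like gate 308 CPM (294 to 322) and 489 CPM (451 to 529).

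Il2rg, the gamma chain shared by the receptors of the family, was found in every class, and its level in Tc9 was below that in Tc1 in Foxp3, type 2 cytokine, Ifng, Il2 and other CD4 cells. In Foxp3 cells it was 789 CPM (738 to 844) in Tc1 and 458 CPM (442 to 475) in Tc9, a log2 ratio of -0.79 (-0.89 to -0.68). In type 2 cytokine cells it was 709 and 405 CPM (-0.81, -0.99 to -0.63). Over all CD4 T cells the levels were 578 and 393 CPM, a log2 ratio of -0.56 (-0.62 to -0.50) that lay just inside 1.5-fold and passed it in 4 of 14 alternatives. Naive-like CD4 cells, at 367 and 360 CPM, and CD8 cells outside the naive-like gate, at 473 and 430 CPM, differed little. Macrophages of Tc1 held 146 CPM, below every T cell class of that library.

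**Figure D4:**
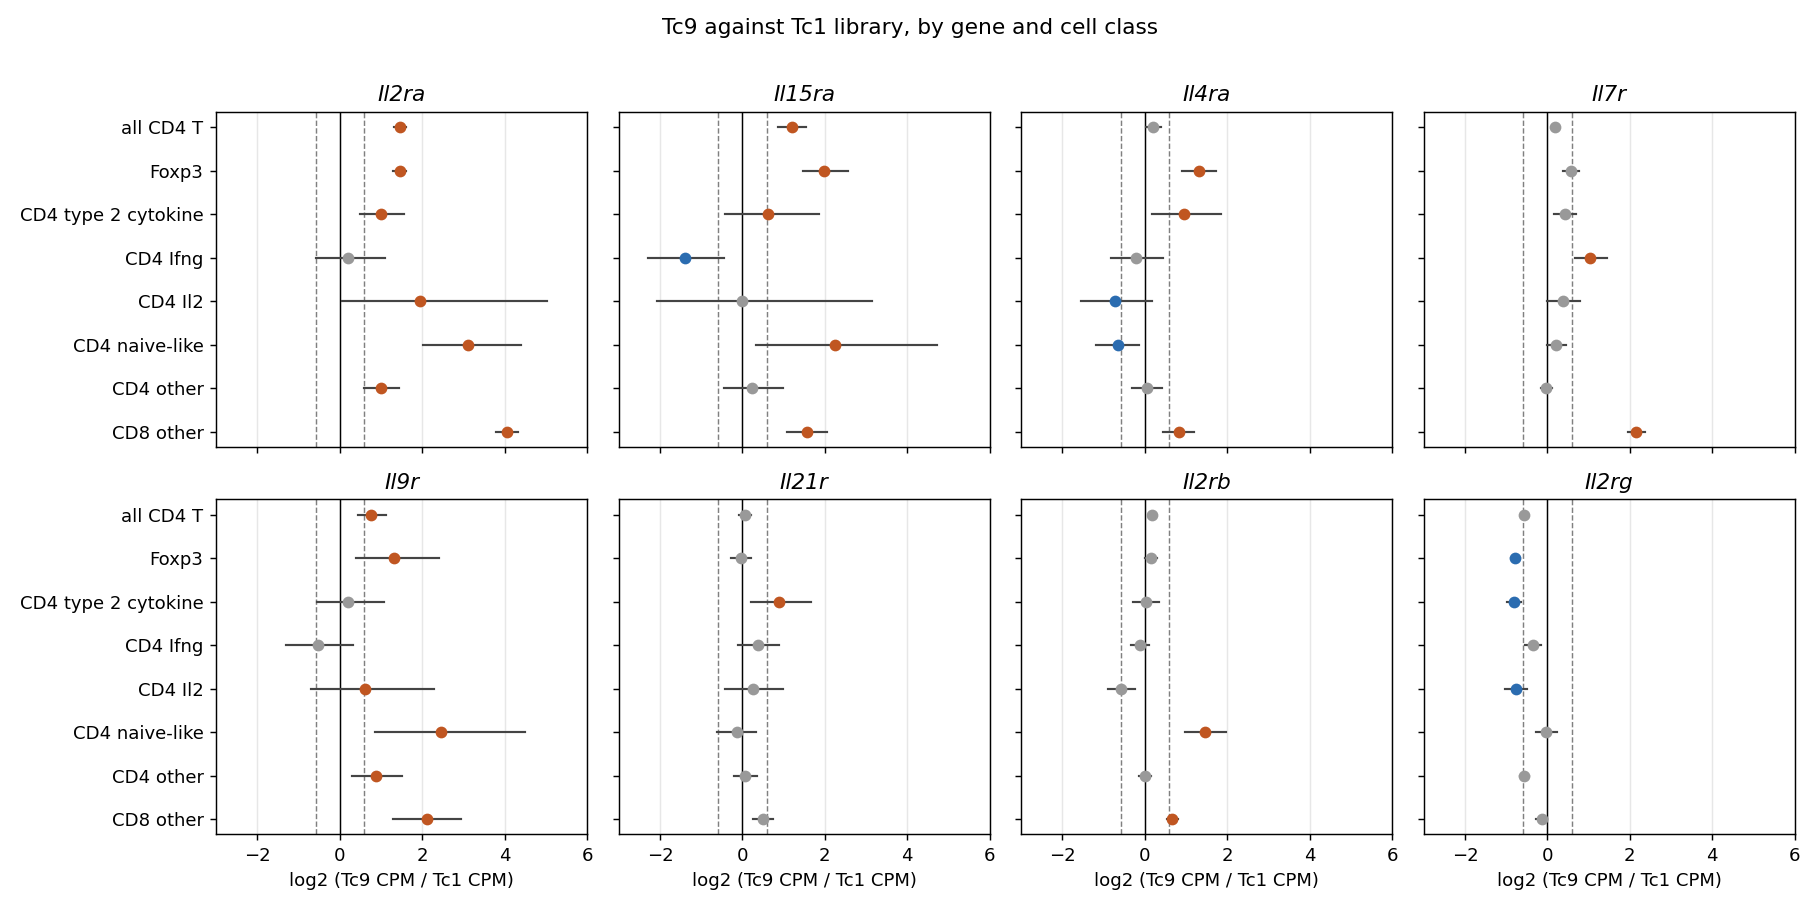
Log2 ratio of the Tc9 to the Tc1 level (x axis) of each receptor gene by cell class (rows), with 95% counting intervals; dashed lines mark 1.5-fold, and points past them are orange (higher in Tc9) or blue (lower). Il2ra is past the line in 7 of the 8 classes shown, whereas Il2rb stays within it in 6.

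Counted over all CD4 T cells, 3 of the 8 genes were at least 1.5-fold higher in Tc9 (Il2ra, Il15ra and Il9r) and none was lower. Of all 8111 genes measured there, 5.99% were that much higher and 17.0% that much lower, and the median log2 ratio was 0.20 for the 8 genes and -0.14 for all genes. In Foxp3 cells 4 were higher (Il15ra, Il9r, Il2ra, Il4ra) and 1 lower (Il2rg), where 15.7% and 21.9% of all genes passed, and the medians were 0.94 and -0.06. Just inside the limit there was Il7r, at a ratio of 1.49, and over 13 alternatives its log2 ratio ran from -0.09 to 0.89. In CD8 cells all but Il4ra and Il2rg were higher, 6 in number, and none was lower, where 17.0% and 18.8% of all genes passed, and the medians were 1.08 and -0.02.

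Within each library, Foxp3 cells against other CD4 cells gave 4 of the 8 genes higher in Tc1 (Il2ra, Il15ra, Il21r, Il2rb) and 1 lower (Il9r), beside 17.4% and 14.6% of all genes. In Tc9 the same 4 and Il4ra were higher and none was lower, beside 12.6% and 4.16% of all genes. Il4ra was 1.36 (1.2 to 1.53) above other CD4 cells in Tc9 on the log2 scale and 0.10 (-0.43 to 0.62) in Tc1.

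The other genes of the pathway were a list of 22 ligands, further chains, kinases, STAT factors, feedback genes and targets. In all CD4 T cells 17 of them were measured, of which 2 were at least 1.5-fold higher in Tc9 and 2 lower, with a median log2 ratio of 0.09, beside 5.99% higher, 17.0% lower and a median of -0.14 over all genes. Il4 was 23.9 CPM in Tc1 and 42.0 CPM in Tc9 (0.81, 0.54 to 1.09), and Pim1, a kinase gene induced by STAT5, was 388 and 664 CPM (0.78, 0.71 to 0.84). Socs2, a feedback inhibitor, was lower, at 176 and 85.7 CPM (-1.04, -1.15 to -0.92), as was Socs1, at 119 and 77.7 CPM (-0.62, -0.75 to -0.49). Socs2 was among the leading genes of the Tc1 cluster with haemoglobin RNA. The kinases Jak1 and Jak3 and all 5 STAT genes stayed within 1.5-fold.

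In Foxp3 cells 5 of 16 measured pathway genes were higher and none lower, beside 15.7% and 21.9% of all genes. They were Stat5a, which went from 46.9 CPM (Tc1) to 82.9 CPM (Tc9) (0.82, 0.41 to 1.26), Stat5b at 181 and 298 CPM (0.72, 0.51 to 0.93), the STAT5-induced inhibitor Cish at 167 and 302 CPM (0.86, 0.64 to 1.08), Pim1 at 575 and 1136 CPM (0.98, 0.87 to 1.10) and Il4 at 2.71 and 14.97 CPM, from 3 UMIs in Tc1 and from 33 cells in Tc9. In CD8 cells 6 of 17 were higher and none lower, beside 17.0% and 18.8% of all genes, among them Pim1 (2.36, 2.25 to 2.47), Cish (1.96, 1.80 to 2.12), Stat5a (1.67, 1.39 to 1.94) and Stat3 (1.02, 0.89 to 1.15). The Foxp3 values of Tc9 CD8 cells given above apply to these as well.

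**Figure D5:**
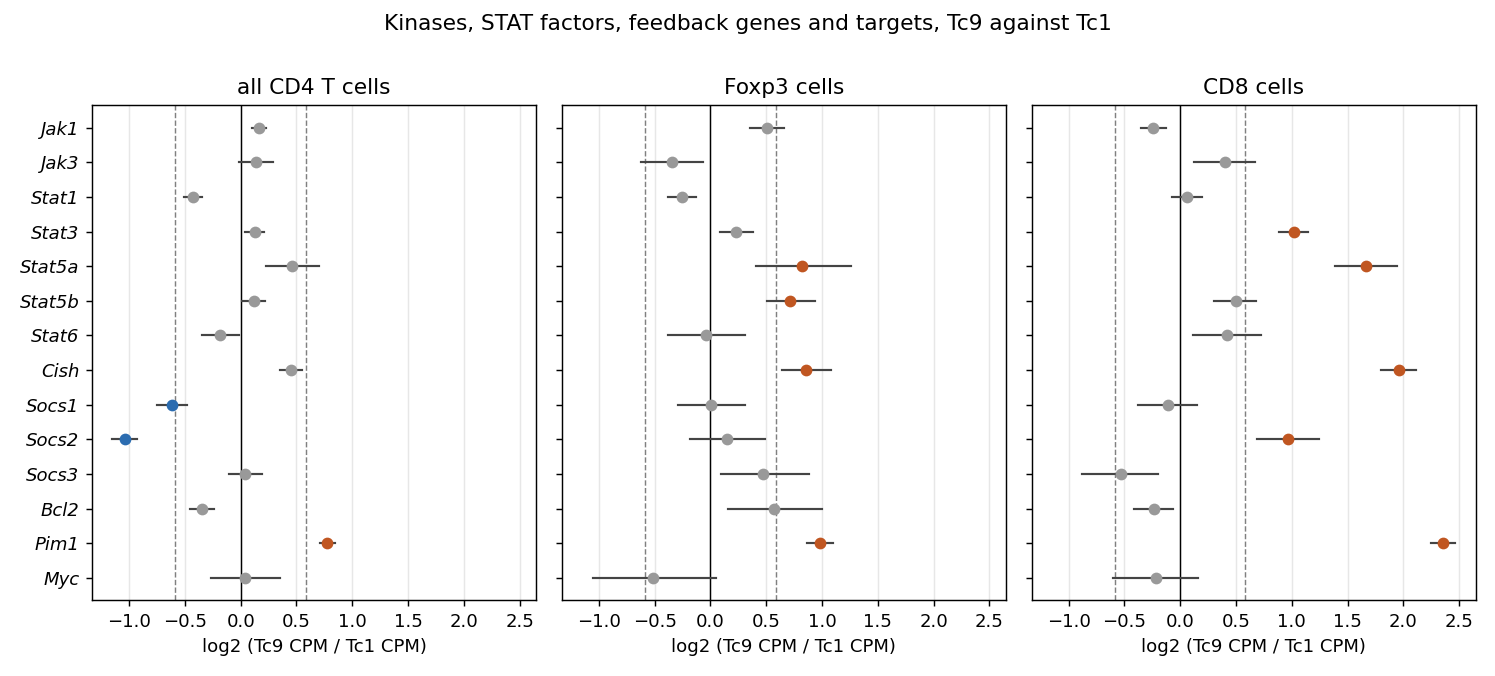
Log2 ratio of the Tc9 to the Tc1 level (x axis) of kinases, STAT factors, feedback genes and targets (rows) in all CD4 T cells, Foxp3 cells and CD8 cells, with 95% counting intervals and dashed lines at 1.5-fold. Pim1 lies at 0.78, 0.98 and 2.36 in the 3 panels, and Jak1 and Jak3 lie within the lines in each.

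Among the ligands, Il15 stood higher in myeloid cells than in CD4 T cells. It was 54.6 CPM (49.0 to 60.7) in macrophages, 106 CPM (73.1 to 148) in dendritic cells and 164 CPM (119 to 222) in neutrophils of Tc1, against 2.01 CPM in all CD4 T cells. Dendritic cells thus held both Il15 and Il15ra. Only 11 cells of Tc9 fell in the neutrophil cluster, and their neutrophil markers summed to 662 CPM, against 51194 CPM in the Tc1 cells, so the name does not hold for them. Il4 was highest in those 11 cells, at 421 CPM from 21 UMIs in 6 of them. Mcpt8, a basophil protease gene, was among the leading genes of that cluster. Il4 was also found in CD8 cells of Tc9 outside the naive-like gate, at 212 CPM from 266 UMIs in 23 of 172 cells, and in shared-receptor cells of Tc9, at 85.2 CPM from 93 of 472 cells. Il21 was 18.1 CPM in shared-receptor cells of Tc9, from 12 cells, and Il7 had 1 and 4 UMIs in all CD4 T cells. Il2 and Il4 define the cytokine classes, so their levels there are no result.

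The genes whose levels ran most like a receptor gene over the classes and libraries were found by Spearman correlation over 20 class profiles and 5446 genes, with classes of 1 library sharing depth and free RNA. For Il2ra they were Rabgap1l (rho 0.91), Atp9b (0.91) and Areg (0.90), the last a growth factor gene of regulatory and type 2 T cells. For Il2rb they were Pmepa1 (0.91), Lars (0.90) and Gem (0.88), for Il7r Pias2 (0.85), Mllt3 (0.84) and Usp9x (0.84), and for Il4ra Inpp5a (0.80), Morf4l2 (0.73) and Cux1 (0.72).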

How the data were processed

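The deposited RNA values are UMI counts for each gene in each barcode, in filtered matrices. The authors made them with Cell Ranger 7.0.0, and mm10 (GRCm38) is the build named, per the submitters' processing notes. Deposited contig tables of the 2 TCR libraries gave the receptor chains. Kept barcodes had 500 or more genes and no more than 10% mitochondrial UMIs (median 5404 and 5256.5 UMIs in Tc1 and Tc9) and were clustered with scanpy 1.11.5 and Leiden (leidenalg 0.10.2, resolution 1) on 2000 variable genes, without the 8 genes, the pathway list or receptor segments. T cell clusters had a Cd3 UMI in at least 60% of cells and at most 1000 CPM of macrophage markers, which left out a cycling cluster. No doublet caller was run. Barcodes with both Cd4 and Cd8 UMIs were left out of the CD4 and CD8 classes, but not of the shared-receptor class, which was set by its TCR chain. Named were all 8 genes, pathway genes at 10 CPM and 1.5-fold in all CD4 T cells, ligands in their highest class and the 3 genes of most alike profile; any other gene was picked with its values in view. The 8 genes and the lists were chosen with earlier results of these data known. A marker gene of the naive-like gate, which needed at least 2 markers of its list per cell, is not reported here. Intervals were checked only on simulated counts that were drawn independently. That check cannot show how much too narrow they are where UMIs of the same cell go together. Where no UMI was found, the limit given is that of 3 counts.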

Additional observations from a re-analysis of the deposited data

Results flagged for a closer look

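Il4ra moved in opposite directions between the libraries in 2 classes: its log2 ratio of Tc9 to Tc1 was 1.30 in Foxp3 cells and -0.66 in naive-like CD4 cells, and neither counting interval covered 0. Il15ra did so as well, with 2.25 in naive-like CD4 cells (3 UMIs in Tc1) and -1.40 in cells with Ifng. With 1 library per group these differences between classes were not tested. The naive-like CD4 gate and the Ifng class held mostly cells of different clusters in the 2 libraries. Within the cluster led by Dapl1 and Tmem108, Il4ra in naive-like CD4 cells was 104 CPM in Tc1 and 145 CPM (58.4 to 299) in Tc9, with overlapping intervals. Over 13 alternatives of processing, the Il4ra ratio in all naive-like CD4 cells ran from -0.74 to -0.03. In Foxp3 cells it ran from 1.07 to 1.54.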

How the results depend on the processing

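The count of the 8 genes at least 1.5-fold higher in Tc9 over all CD4 T cells was 2 or 3 under the 15 alternatives, 3 of which were chosen after seeing the data. The count lower was 1 instead of 0 at Leiden resolution 0.6, with 2 UMIs of the gate genes, without cells with macrophage or red cell UMIs, and with expected free RNA subtracted. Between-library scaling shifted log2 ratios in all CD4 T cells by 0.26 (TMM, edgeR 4.0.16) or 0.14 (median ratio). Over all CD4 T cells, Il2rb (-0.06 to 0.43), Il7r (-0.05 to 0.45), Il4ra (-0.10 to 0.46) and Il21r (-0.37 to 0.32) stayed within 1.5-fold with either sign. Il2ra in Foxp3 over other CD4 cells was 2.09 in Tc1 with 2 gate UMIs and 6.63 in Tc9 with free RNA subtracted. With 2 gate UMIs, cells with 1 Foxp3 UMI left the Foxp3 class and could enter the other CD4 classes. Il7r in naive-like over Foxp3 cells of Tc1 was 1.26 at resolution 0.6, 0.60 without cells with macrophage or red cell UMIs, 0.19 as a mean over cells and 1.14 with the cycling cluster taken in; in Tc9 it was 0.28 with 2 gate UMIs. Il4ra in myeloid over other CD4 cells was 1.33 in Tc1 at 5% mitochondrial UMIs and 1.45 at resolution 0.6, and in Tc9 2.42 at 1000 genes per barcode and 1.89 at resolution 1.5. Il2ra in other CD4 cells turned, to -0.074 with 2 gate UMIs and -1.54 with free RNA subtracted. Among T cell classes of at least 50 cells in each library, which leaves out shared-receptor cells, the class with the highest share of cells with a UMI was the same in both libraries for 5 of the 8 genes with cells thinned to 2000 UMIs, for 4 at 1000 UMIs and for 3 without thinning. The cause of these shifts was not tested. Il2rb in NK over other CD4 cells stayed between 1.24 and 1.65 in Tc1 and between 1.89 and 2.01 in Tc9. No paired analysis was possible because each group has 1 library. Classes under 50 cells (NK, shared-receptor and type 2 and Ifng cells of Tc1, dendritic cells, naive-like CD8 cells and neutrophil-cluster cells of Tc9) have wide intervals.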
